A study of Mus musculus with 2 samples.

Results

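Cycling fibroblasts of the mouse mammary gland, the rare *Pdgfra*+ stromal cells that carry transcripts of cell division, are described here from droplet-based single-cell RNA sequencing (scRNA-seq) of 2 stages of postnatal development. The cells were chosen by their own UMI counts. A cell was counted as a cycling fibroblast when it held at least 1 unique molecular identifier (UMI, the tag that marks 1 captured transcript) of *Pdgfra*, a pan-fibroblast receptor gene, and at least 1 UMI each of at least 3 of 12 cell cycle genes, *Mki67*, *Top2a*, *Birc5*, *Cenpf*, *Ube2c*, *Prc1*, *Ccnb2*, *Tpx2*, *Cdca8*, *Ccna2*, *Pclaf* and *Cdk1*. This rule found 127 cells among 44871 barcodes, 47 of them at puberty and 80 in the adult. Both libraries came from wild-type C57BL/6 females that carried no transgene and received no treatment according to the labels, at 4 weeks of age (puberty) and at 9 weeks (virgin adult). Each library held the cells of 2 females, sorted as negative for lineage markers and for CD24, and both were marked as replicate 2. With 1 library per stage there was no spread between animals against which a difference could be set. No test across samples was possible, every stage difference is a difference between 2 libraries, and the 95% intervals given cover counting error alone.

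Fibroblasts in a resting gland seldom divide, and a dividing cell is recognised by genes that are switched on in turn. Replication factors and the histone genes that package new DNA are transcribed in S phase, and the cyclins, kinesins and kinetochore proteins that build and pull apart the spindle accumulate in G2 and M phase. Mammary fibroblasts form several classes, among them *Pi16*+ *Dpp4*+ progenitors, *Fabp4*+ *Cd36*+ preadipocytes that lead to the adipocytes of the fat pad, and matrix-producing cells around the ducts, whose growth at puberty requires oestrogen.

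Since the 12 genes chose the cells, their levels are a description. *Mki67*, a proliferation antigen, was the most widely detected, in 40 of 47 pubertal and 72 of 80 adult cycling fibroblasts, at 546 and 876 summed UMIs scaled to 1000000 (CPM). *Ccnb2*, a mitotic cyclin, was found in 35 and 61 cells, *Top2a*, a topoisomerase that untangles sister chromatids, in 32 and 56 cells, and *Cdk1*, the kinase that drives entry into mitosis, in 22 and 37 cells. *Pclaf*, a partner of the replication clamp, was found in 34 pubertal and 48 adult cells. In the remaining *Pdgfra*+ cells each of the 12 genes was detected in 0.111% to 2.09% of cells. All 12 were thus common in the selected cells and near-absent elsewhere, which is what the rule asked for.

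The promoters of these genes share sequence that the rule did not use. Many late cell cycle genes carry a cell cycle homology region, with the letters TTTGAA, close to the start of transcription, often downstream of CCAAT boxes. RefSeq windows on mouse build GRCm38.p6, from 250 bases before to 50 bases after a start site, were searched on both strands for TTTGAA, for CCAAT and for TTCCCGC, a form of the E2F motif. Windows were found for 10 of the 12 genes, and 8 of them held TTTGAA against 18.1% of the windows of 27025 genes, counting 1 window per gene. Of these, 7 stretches of 30 bases around the TTTGAA nearest the start are printed, with the motif in capitals (TTCAAA where it lies on the opposite strand). They share these letters because the search picked them by the motif.
Mki67, chr7:135716460-135716489, minus strand: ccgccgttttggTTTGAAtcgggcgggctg
Top2a, chr11:99024195-99024224, minus strand: gctagataaaggTTCAAAtgaaactaggga
Cenpf, chr1:189688067-189688096, minus strand: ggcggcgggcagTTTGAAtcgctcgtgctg
Ube2c, chr2:164769888-164769917, plus strand: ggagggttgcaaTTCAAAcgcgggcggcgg
Prc1, chr7:80294434-80294463, plus strand: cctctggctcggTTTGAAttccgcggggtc
Ccnb2, chr9:70421533-70421562, minus strand: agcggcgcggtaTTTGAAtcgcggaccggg
Cdk1, chr10:69352910-69352939, minus strand: taccgcggcgagTTTGAAactgctggcact

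In *Cenpf*, *Prc1*, *Ccnb2* and *Cdk1* the motif began between 15 bases before and 4 bases after the annotated start. It lay further upstream in *Top2a* (23 bases before), *Ube2c* (29 bases before) and *Mki67* (98 bases before). The letters were not found in the windows of *Birc5* and *Pclaf*. The CCAAT box was present in 9 of the 10 windows, against 37.9% of all genes. The windows of the other cycle genes studied below were searched in the same way. Of 45 windows of mitosis genes, 31 (68.9%) held TTTGAA and 2 (4.44%) held TTCCCGC, whereas of 36 windows of DNA replication genes 7 (19.4%) held TTTGAA and 16 (44.4%) held TTCCCGC, against 4.66% of all genes. Histone genes were mixed, with TTTGAA in 26 of 57 windows (45.6%), TTCCCGC in 5 (8.77%) and CCAAT in 49 (86.0%). A match to these letters is a description of the window and not evidence of a bound factor.

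Per stage, cycling fibroblasts made up 0.249% of 18878 *Pdgfra*+ cells at puberty (exact Clopper-Pearson interval 0.183 to 0.331) and 0.381% of 20999 in the adult (0.302 to 0.474). The adult share was 1.53 times the pubertal share (interval 1.05 to 2.24). This difference did not hold under every way of counting. Without the cells that Scrublet, a doublet caller, scored highest, 45 pubertal and 57 adult cells remained and the ratio was 1.15 (0.762 to 1.74). With at least 2 of the 12 genes it was 0.930 (0.736 to 1.17), and with at least 7 it was 1.69 (1.02 to 2.87). A further 5 pubertal and 12 adult cells passed the gene rule without a *Pdgfra* UMI.

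The number of the 12 genes per cell separated the cycling fibroblasts into a scattered lower range and an upper range. Of the *Pdgfra*+ cells, 100 at puberty and 72 in the adult had exactly 2 of the genes and so missed the rule, and 9 and 14 had exactly 3 and met it. At the top, 5 pubertal and 24 adult cells had all 12. Cells with exactly 3 genes held a median of 2 (puberty) and 2.5 (adult) of 54 other mitosis genes, where cells with 2 of the 12 genes held medians of 2 and 3 and cells with none of them 2 and 2. Cells with 4 to 6 genes held a median of 7 in both libraries. Cells with 7 to 12 genes, 25 at puberty and 47 in the adult, held a median of 32 (19 to 48) and 39 (17 to 52), and no cell with 6 or fewer genes held more than 16. The limit of 7 was set after these values were seen. Division genes named below were mostly higher among the cells with at least 7 genes, and for other genes the main differences from the values over all cycling cells are given.

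**Figure D1:**
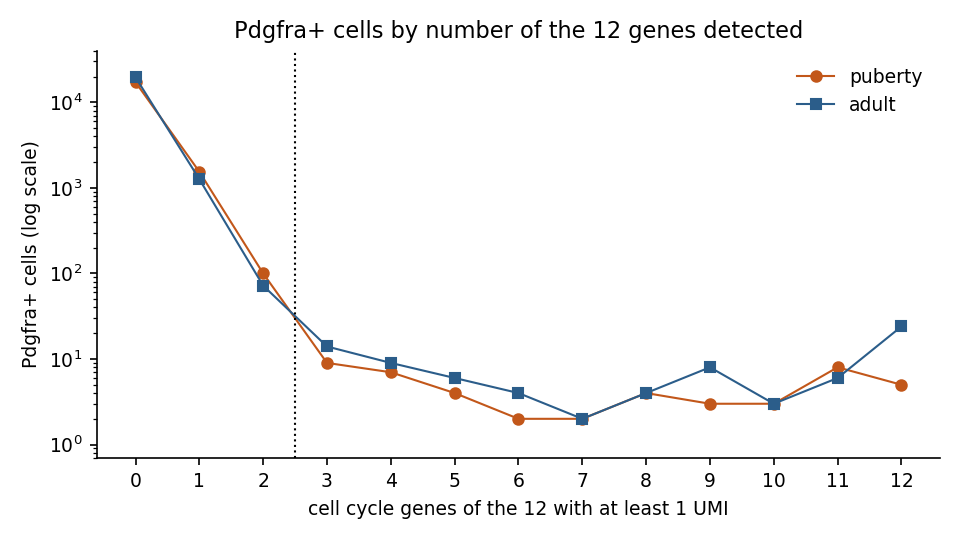
Number of *Pdgfra*+ cells (log scale) against how many of the 12 cell cycle genes had at least 1 UMI, for the pubertal and the adult library; the dotted line marks the rule of at least 3. There were 17189 and 19584 cells with 0 genes but 9 and 14 with 3, and in the adult 24 cells with all 12.

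The cycling fibroblasts carried the general fibroblast program. All 5 markers *Dcn*, *Lum*, *Pdgfra*, *Col1a2* and *Col1a1* were detected in 46 of 47 pubertal and all 80 adult cells, against 98.3% and 97.3% of the non-cycling *Pdgfra*+ cells, which are those with none of the 12 genes. They were deeper, with a median of 17985 and 20674 UMIs per cell against 12110 and 11119, and 4634 and 5040 genes against 3502 and 3473. Markers of immune cells were almost undetected, with *Ptprc* and *Cd3e* at 0 in both libraries and summed levels of 1.15 and 2.43 CPM over 6 markers. All 5 skeletal muscle markers were at 0 at puberty. All 6 epithelial markers were at 0 in the adult, but at puberty they summed to 217 CPM against 0.380 CPM in non-cycling cells, from 3 cells, of which 2 had at least 2 markers. In all, 7 pubertal and 10 adult cycling fibroblasts (14.9% and 12.5%) held at least 2 markers of some other cell type, against 7.91% and 4.29% of non-cycling cells, and 1 in each library held at least 3. Scrublet, set to mark the same share of barcodes as the expected doublet rate, marked 2 of 47 pubertal (4.26%) and 23 of 80 adult cells (28.8%), against 8.88% and 9.37% of non-cycling cells. Calls were thus frequent among the adult cycling cells, and the class results below are also given without them where they changed most. Of 145 barcodes found in both libraries, 1 belonged to a cycling fibroblast and none to 2.

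To see which functions the selected cells carried, UMIs were summed over cycling and over non-cycling *Pdgfra*+ cells of each library and compared gene by gene as log2 ratios with 1 CPM added. The rule used this contrast, so no test was run on it. Of 8683 genes with a mean of at least 10 CPM, 554 (6.38%) were at least 2-fold higher in cycling cells in both libraries and 156 (1.8%) at least 2-fold lower. Centred on the median of all genes the counts were 407 and 243, and among cells with at least 7 of the 12 genes 740 and 209. Across all of these genes the median log2 ratio was 0.23 at puberty and 0.15 in the adult, and the list medians given next should be read against that shift.

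Genes of DNA replication, with 30 of 32 at least 2-fold higher in both libraries, had a median log2 ratio of 3.11 at puberty and 2.79 in the adult. Several, among them *Tk1* and *Uhrf1*, passed the minimum of 10 CPM only through the cycling cells. The count is therefore set in part by the minimum. *Tk1*, the thymidine kinase of the S phase nucleotide supply, was at 41.4 CPM in cycling against 0.179 CPM in non-cycling cells at puberty and at 50.4 against 0.167 CPM in the adult. *Uhrf1*, which carries DNA methylation over to the new strand, was at 55.2 against 0.395 CPM and 57.7 against 0.515 CPM. *Pcna*, the sliding clamp of the replication fork, differed less, with 166 against 41.4 CPM and 144 against 38.6 CPM, and was well detected in non-cycling cells too. The 2 genes that did not reach 2-fold in both libraries were *Slbp*, which binds the stem loop of histone messages (log2 ratios of 0.33 and 0.93), and the transcription factor *E2f1* (0.98 and 1.25).

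Mitosis genes reached a median log2 ratio of 4.91 at puberty and 5.41 in the adult, with 49 of 50 at least 2-fold higher in both. All 50 together summed to only 200 and 209 CPM in non-cycling cells. Genes such as *Hmmr*, *Knl1* and *Ccnb1* passed the minimum of 10 CPM only through the cycling cells, so this count too is set in part by the minimum. *Hmmr*, a spindle-associated protein, was at 121 CPM in cycling against 0.0282 CPM in non-cycling cells at puberty and at 219 against 0.0528 CPM in the adult. *Knl1*, a kinetochore scaffold, was at 108 against 0.362 CPM and 160 against 0.335 CPM. *Ccnb1*, the cyclin partner of Cdk1, was at 41.4 against 0.0892 CPM and 61.3 against 0.0176 CPM, and was detected in 15 of 47 and 27 of 80 cells. *Hjurp*, the loader of the centromeric histone, showed smaller log2 ratios of 1.71 and 1.84. *Pttg1*, the securin that holds sister chromatids together, was the exception, at 34.5 against 46.1 CPM and 40.1 against 39.3 CPM, so that its level did not separate cycling from non-cycling fibroblasts.

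Of 66 histone genes 15 reached the minimum of 10 CPM, most of them only through the cycling cells, so that all 15 were at least 2-fold higher is set in part by the minimum. Their median log2 ratios were 5.005 and 4.11. Averaged over both libraries the median was 4.56, and without the minimum it was 2.55, where the medians of the mitosis genes (5.16 and 5.12) and of the replication genes (2.95 and 2.87) were nearly the same. Replication-dependent histone messages mostly lack a poly(A) tail, so a method that primes on poly(A) records only part of them. *H1f5*, a linker histone, was at 679 against 0.385 CPM at puberty and 368 against 0.313 CPM in the adult, but its UMIs came from 13 of 47 and 24 of 80 cells. *H3c3*, a core histone, was at 151 CPM and 102 CPM in cycling cells, from 11 and 15 cells, and at 0.00939 and 0.0264 CPM in non-cycling cells. *H2bc4* was well detected in both kinds of cell, with log2 ratios of 1.56 and 1.01. Among chromatin and tubulin genes 15 of 17 were at least 2-fold higher, led by *Stmn1*, a regulator of microtubule growth (408 against 4.63 CPM and 595 against 4.71 CPM), and *Hmgb2*, a chromatin protein (271 against 25.8 CPM and 447 against 24.9 CPM). The tubulins *Tubb6* (0.51 and 0.90) and *Tuba1c* (0.48 and 1.71) were not past 2-fold in both.

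The histone genes divided the cycling fibroblasts further. At puberty 9 cells, and in the adult 14, held at least 10 of the 66 histone genes, a limit set after the values were seen, and all of them had at least 7 of the 12 rule genes. Within the upper range, the 9 pubertal cells with many histone genes held a median of 32 of 45 DNA replication genes, against 8 in the 16 with few. In the adult the 14 cells with many held a median of 31, against 12 in the other 33. Mitosis genes were abundant on both sides, with medians of 42 and 28.5 at puberty and 45 and 37 in the adult. Among the 22 pubertal and 33 adult cells with 3 to 6 rule genes none held at least 10 histone genes, and 3 and 1 held at least 20 replication genes. Cells with many replication genes were almost absent outside the rule, with 1 of 1642 pubertal cells with 1 or 2 rule genes and 1 of 19584 adult cells with none. The cells with many histone genes were somewhat deeper than the rest of the upper range, with medians of 22853 against 18599 UMIs at puberty and 25332 against 21388 UMIs in the adult.

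**Figure D2:**
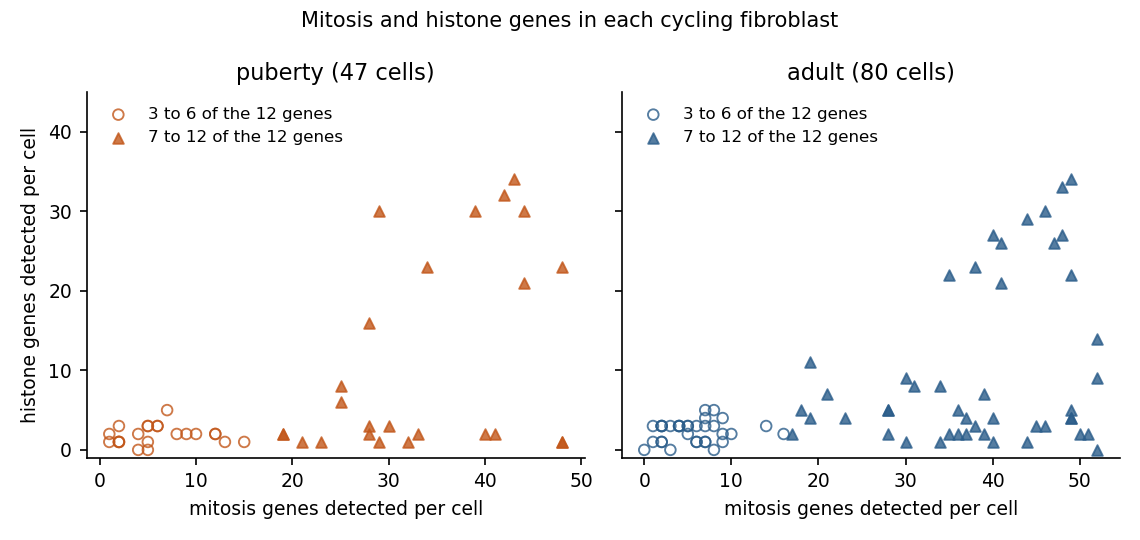
Each point is 1 cycling fibroblast, placed by the number of mitosis genes (of 54, none of them used by the rule) and of histone genes (of 66) with at least 1 UMI; open circles have 3 to 6 and filled triangles 7 to 12 of the 12 rule genes. Cells with 10 or more histone genes, 9 at puberty and 14 in the adult, all lie among the triangles, and no open circle lies beyond 16 mitosis genes.

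Genes that act before S phase differed less. Of 6 G1 cyclins, CDKs and MYC, only *Cdk4*, the kinase partner of D cyclins, was at least 2-fold higher in both libraries (117 against 46.7 CPM and 113 against 45.2 CPM). *Myc* was at 152 against 264 CPM at puberty and 148 against 182 CPM in the adult, with log2 ratios of -0.79 and -0.30. *Ccnd1*, cyclin D1, was low everywhere, at 9.20 against 6.88 CPM and 10.3 against 5.90 CPM, and fell below the minimum for the comparison. Among 13 CDK inhibitors, RB family members and p53 targets, 3 were at least 2-fold higher in both, *Rbl1*, an RB relative (log2 ratios of 2.07 and 2.45), the INK4 inhibitor *Cdkn2c* (1.68 and 2.13) and *Phlda3* (1.17 and 1.05), and none was 2-fold lower in both. Among pubertal cells with at least 7 rule genes *Phlda3* was at 25.6 CPM, a ratio of 1.73 (0.922 to 2.97), and so not past 2-fold. *Cdkn1a*, the p21 inhibitor that p53 induces, had a log2 ratio of -0.90 in both, from 259 against 483 CPM and 171 against 321 CPM. At equal depth, after thinning each cell to 3000 UMIs, *Cdkn1a* was detected in 44.7% of pubertal and 32.5% of adult cycling cells against 63.2% and 44.8% of non-cycling cells.

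Which fibroblast classes the cycling fibroblasts, as the rule selected them, carried markers of was asked with marker sets of the classes. Every cell was thinned to 3000 UMIs, because cycling cells were deeper, and a cell was assigned a class when at least 3 of its markers were detected. A cell can carry more than 1 class. The number of cycling cells expected from the non-cycling share of the same library was set against the number observed.

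Preadipocyte markers (*Fabp4*, *Cd36*, *Lpl*, *Aoc3*, *Pparg*) were carried by 34 cycling fibroblasts where 8.23 were expected, a ratio of 4.13 (interval 2.98 to 5.46). At puberty 9 of 47 cycling cells carried them, 19.1% against 5.92% of non-cycling cells, and in the adult 25 of 80, 31.3% against 6.81%. The intervals of both libraries lay above 1 (1.48 to 6.17 and 2.96 to 6.81). The ratio was 4.52 without Scrublet doublets, 3.85 among cells with at least 7 of the 12 genes, 2.93 at 6000 UMIs per cell and 2.02 when 2 markers sufficed. *Fabp4*, the fatty acid carrier, was at 391 against 113 CPM at puberty and 419 against 107 CPM in the adult, *Cd36*, the fatty acid transporter, at 69.0 against 20.02 CPM and 79.6 against 16.7 CPM, and *Pparg*, the regulator of adipogenesis, at 75.9 against 31.4 CPM and 201 against 72.5 CPM. *Lpl*, lipoprotein lipase, which most fibroblasts expressed, was at 959 against 712 CPM and 998 against 953 CPM, and *Aoc3* at 63.2 against 33.7 CPM and 46.8 against 44.1 CPM, so the excess lay in *Fabp4*, *Cd36* and *Pparg*. Among pubertal cells with at least 7 rule genes *Fabp4* was at 183 CPM, below its level over all 47 cells but still above the non-cycling level.

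Several of these genes are not limited to fibroblasts. In 601 pubertal and 310 adult cells with at least 3 pericyte or smooth muscle markers and no *Pdgfra*, *Fabp4* was detected in 93.5% and 91.6% and *Pparg* in 45.6% and 56.5% at the same 3000 UMIs. Defining markers of those cells were found in more of the deeper cycling cells but not at a higher summed level. At least 1 of *Rgs5*, *Mcam*, *Notch3*, *Cspg4* and *Myh11* was detected in 14 of 47 pubertal and 21 of 80 adult cycling cells at full depth, against 1542 of 17189 and 1963 of 19584 non-cycling cells, and at least 2 in 1 and 2 cycling cells (2.13% and 2.5%) against 1.20% and 0.802%. Over the 5 markers the summed level was 32.2 CPM in cycling against 37.9 CPM in non-cycling cells at puberty and 19.4 against 29.3 CPM in the adult, where *Rgs5* was at 0. Of the cells with preadipocyte markers, 3 of 9 pubertal and 11 of 25 adult cycling cells had at least 1 pericyte marker, against 243 of 998 and 288 of 1305 non-cycling cells. Of the 34, 1, in the adult, had at least 2 pericyte markers, 1 in each library had at least 2 endothelial markers, and all 34 had the 5 fibroblast markers. Scrublet marked none of the 9 pubertal and 5 of the 25 adult cells. With every cell that held 2 markers of another type left out, the ratio was 4.25 (2.998 to 5.71). The part of pericyte RNA in the preadipocyte result was not tested further.

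Progenitor markers (*Pi16*, *Dpp4*, *Anxa3*, *Sema3c*, *Smpd3*, *Efhd1*) were carried by 35 cycling fibroblasts where 61.3 were expected, a ratio of 0.571 (0.415 to 0.750). The deficit lay mainly at puberty, where 10 of 47 cells carried them, 21.3% against 71.0% of non-cycling cells, a ratio of 0.300 (0.144 to 0.551). In the adult 25 of 80 did, 31.3% against 34.9%, with a ratio of 0.896 (0.579 to 1.32). The difference between the stages was not tested. The cycling shares of the stages were thus closer to each other than the non-cycling shares were. *Pi16* was at 232 against 1099 CPM at puberty and 355 against 764 CPM in the adult, and *Dpp4*, which encodes CD26, at 223 against 675 CPM and 272 against 486 CPM. Progenitor and preadipocyte markers met in 1 cycling cell of each library (2.13% and 1.25%), against 0.819% and 0.501% of non-cycling cells. The overlap was thus rare in both kinds of cell and not lower in cycling cells. Without thinning the progenitor ratio was 0.904 (0.747 to 1.06), and at full depth 22 of 47 and 40 of 80 cycling cells held at least 1 UMI of *Pi16*. In pericyte-marked cells, with a median of 6490 and 6802 UMIs, *Pi16* was detected in 4.33% and 2.58% at 3000 UMIs, against 31.9% and 31.3% of cycling fibroblasts.

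Other classes were close to or below their expected numbers. The *Mmp3*/*Fabp4* class (*Mmp3*, *Fabp4*, *Mgp*, *Postn*, *Lpl*, *Lox*) was the most frequent, in 74 cycling cells against 65.6 expected, 1.13 times as many (0.953 to 1.30). Its markers went different ways. *Mmp3* was at 100 against 277 CPM at puberty and 253 against 643 CPM in the adult, and *Mgp* was also lower in both libraries. *Fabp4* and *Postn* were higher in both. *Lpl* was higher at puberty (959 against 712 CPM) but nearly level in the adult (998 against 953 CPM). Among cells with at least 7 rule genes its ratios were 0.981 and 0.935. *Lox* was lower in the adult, at 82.0 against 183 CPM. At puberty *Lox* was at 235.6 against 219.5 CPM, with 74 of 205 UMIs in 1 cell. After thinning it was detected in 21.3% against 36.3% of pubertal cells, a ratio of 0.587 (0.281 to 1.08). *Fabp4* and *Lpl* are preadipocyte markers too. Only 3 cells had markers of the lobular-like class (*Thbs4*, *Bmp5*, *Cilp*, *Hmcn2*, *Myoc*, *Fndc1*) where 10.2 were expected, a ratio of 0.295 (0.0611 to 0.842), and those of the adipogenesis-regulatory class (*Gdf10*, *Clec11a*, *Fmo2*, *F3*, *Inmt*, *Chrdl1*) were found in 7 against 14.1, a ratio of 0.496 (0.202 to 0.993). Neither shortfall held under every setting. The lobular-like ratio was 0.529 (0.215 to 1.06) at 6000 UMIs, 0.783 (0.413 to 1.32) without thinning and 0.134 (0.00338 to 0.728), from 1 cell, without Scrublet doublets. The adipogenesis-regulatory ratio was 0.795 (0.542 to 1.10) without thinning, 0.717 (0.294 to 1.42) with at least 5 of the 12 genes and 0.449 (0.147 to 1.01) without Scrublet doublets. *Hmcn2* was at 1.15 against 24.9 CPM at puberty and 24.3 against 130 CPM in the adult, and *Inmt* at 62.1 against 108 CPM and 95.4 against 328 CPM. The *Dlk1*/*Tenm2* class was not found in any cycling cell. The exact intervals reach 7.55% of 47 pubertal and 4.51% of 80 adult cells, above its non-cycling shares of 0.219% and 0.308%. Its absence was thus not detectable at this number of cells. No class was assigned to 13 pubertal and 12 adult cycling cells (27.7% and 15.0%), against 3.95% and 9.18% of non-cycling cells.

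**Figure D3:**
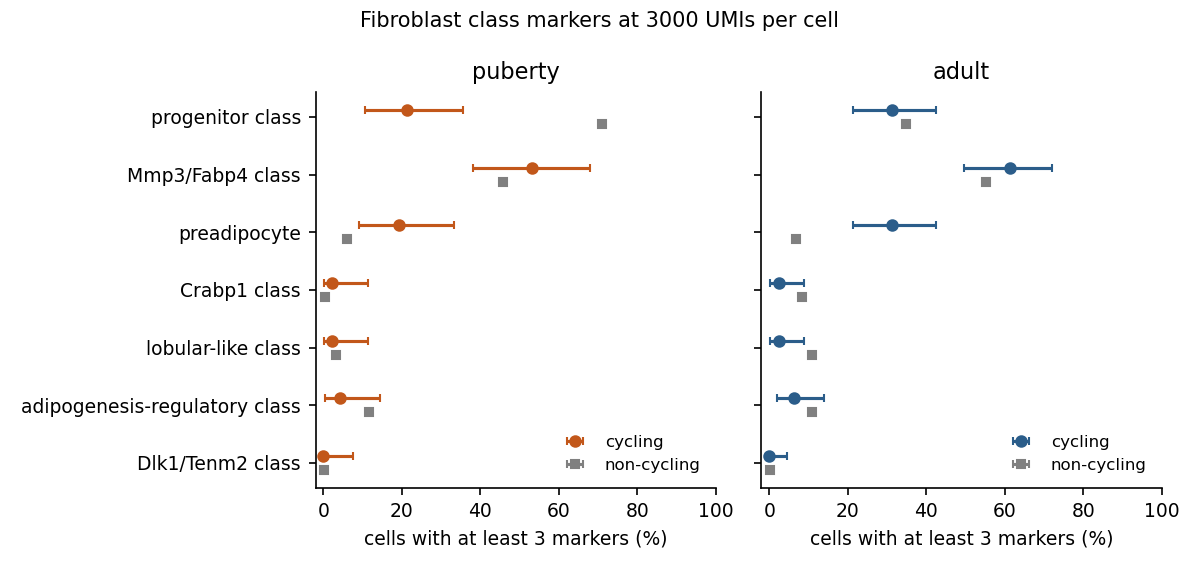
Share of cells (%) with at least 3 markers of each fibroblast class after thinning to 3000 UMIs, in cycling (circles) and non-cycling (squares) *Pdgfra*+ cells of each library; bars are 95% Clopper-Pearson intervals. Preadipocyte markers stood at 19.1% and 31.3% of cycling against 5.92% and 6.81% of non-cycling cells, and progenitor markers at 21.3% against 71.0% at puberty.

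Of the markers of the *Crabp1* class, *Crabp1*, *Tnc* and *Enpp2* stood well above the non-cycling level at puberty. In the adult, over all cycling cells, *Crabp1* and *Tnc* were less far above it and *Enpp2* was below it. *Crabp1*, a retinoic acid binding protein, was nearly absent from non-cycling pubertal fibroblasts, at 5.04 CPM, but stood at 294 CPM in cycling ones. These UMIs came from 10 of 47 cells, and 82 of the 256 from a single cell, without which the level was 207 CPM. Of the pubertal cells with at least 7 rule genes 6 of 25 had it. In the adult, where the class is common, it was at 64.4 against 41.3 CPM, and without its top cell at 42.1 CPM. At 3000 UMIs *Crabp1* was detected in 12.8% of pubertal cycling cells (4.83 to 25.7) against 0.635% of non-cycling cells, and in 13.8% (7.07 to 23.3) against 6.92% in the adult. None of the 601 pubertal and 310 adult pericyte-marked cells had a UMI of it, which allows up to 0.499% and 0.968% if 3 cells are taken as the limit.

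*Tnc*, which encodes the matrix protein tenascin-C, and *Enpp2*, the enzyme that makes lysophosphatidic acid, were also high in pubertal cycling cells. *Tnc* was at 469 against 17.6 CPM at puberty, from 16 cells with 146 of 408 UMIs in 1 of them (308 CPM without it), and at 112 against 82.5 CPM in the adult, from 25 cells. Among adult cells with at least 7 rule genes *Tnc* was at 78.25 CPM, not above the non-cycling level. It was also detected in 10.8% and 10.0% of pericyte-marked cells. *Enpp2* was at 170 against 37.9 CPM at puberty and at 154 against 306 CPM in the adult. Of the 10 pubertal cycling cells with *Crabp1*, 8 also had *Tnc* and 9 had *Enpp2*, while 2 had *Fabp4*. Of the 240 non-cycling pubertal cells with *Crabp1*, 66 had *Tnc*, 190 had *Enpp2* and 35 had *Fabp4*. Pairing with *Enpp2* was thus common in *Crabp1*+ cells of both kinds. These counts are at full depth, where cycling cells hold more UMIs. *Stra6* and *Pla2g7*, the remaining markers, were low in pubertal cycling cells, at 11.5 against 1.31 CPM and 12.6 against 5.86 CPM. Of the 11 pubertal *Pla2g7* UMIs 9 came from 1 cell. In the adult *Pla2g7* was at 9.72 against 91.0 CPM. With 3 markers required, the class was therefore assigned to only 1 pubertal and 2 adult cells, and with 2 markers to 9 of 47 at puberty, 19.1% against 1.48% of non-cycling cells, and to 12 of 80 in the adult, 15.0% against 20.5%.

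**Figure D4:**
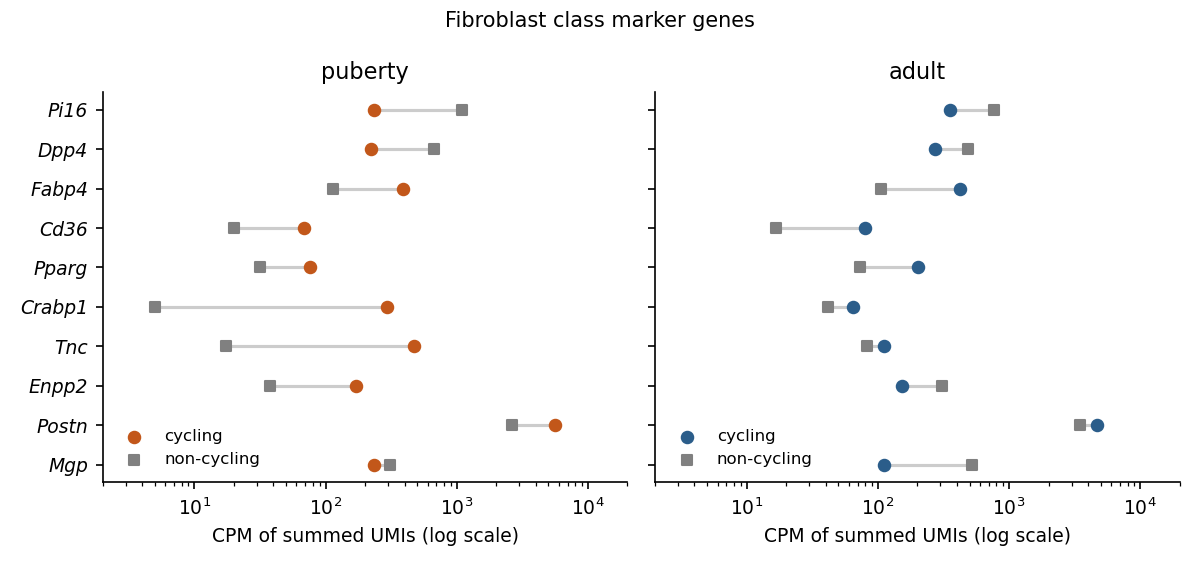
Level (CPM of summed UMIs, log scale) of class marker genes in cycling (circles) and non-cycling (squares) *Pdgfra*+ cells of each library, the pairs joined by a line. *Fabp4*, *Cd36* and *Pparg* are higher and *Pi16* and *Dpp4* lower in cycling cells of both libraries, whereas the wide gaps of *Crabp1* and *Tnc* are at puberty.

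Matrix genes differed between the libraries. Of 21, none was at least 2-fold higher in cycling cells of both libraries, and *Eln*, elastin, and *Fbln1*, fibulin 1, were at least 2-fold lower (183 against 544 CPM and 96.6 against 245 CPM for *Eln*, 63.2 against 160 CPM and 77.7 against 179 CPM for *Fbln1*). *Col1a1*, the chief fibrillar collagen, was at 6195 against 9989 CPM at puberty and 4933 against 4806 CPM in the adult. *Postn*, periostin, had the largest ratio of the list at puberty and was at 5561 against 2639 CPM and 4651 against 3449 CPM. Of 5 contractile genes *Tpm2*, a tropomyosin, was the 1 past 2-fold in both libraries, at 133 against 17.5 CPM and 104 against 23.8 CPM. *Acta2*, smooth muscle actin, was at 90.8 against 21.6 CPM at puberty, with 27 of 79 UMIs in 1 cell and 37.5 CPM among cells with at least 7 rule genes, and 23.7 against 11.6 CPM in the adult. In pericyte-marked cells *Tpm2* was detected in 98.3% and 90.3%, and the part of such cells in these levels was not tested beyond the marker values given above.

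Of 5 hormone receptors tested, 1 was at least 2-fold lower in cycling cells of both libraries. All 5 had log2 ratios below 0 in both libraries, with medians of -1.11 and -0.89. The called gene was *Pgr*, the progesterone receptor, at 17.2 against 38.4 CPM and 4.86 against 14.0 CPM, from 5 cells in each library with 11 of 15 pubertal UMIs in 1 of them. At 3000 UMIs *Pgr* was detected in 4.26% (0.520 to 14.5) against 6.95% of cells at puberty and in 2.5% (0.304 to 8.74) against 2.51% in the adult, so at equal depth no difference in its share was detectable over all cycling cells. Among cells with at least 7 rule genes *Pgr* was lower, with 2 UMIs in 25 pubertal cells (3.94 CPM) and 1 UMI in 47 adult cells (0.932 CPM). The difference was not tested. *Esr1*, the oestrogen receptor, was at 144 against 362 CPM at puberty and 138 against 188 CPM in the adult, and at 3000 UMIs it was detected in 25.5% against 55.6% and 30% against 33.7% of cells. *Prlr*, the prolactin receptor, had 16 UMIs at puberty, 11 of them in 1 cell, and 1 UMI in the adult. *Nr3c1*, the glucocorticoid receptor, differed least (log2 ratios of -0.11 and -0.21).

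Growth factor genes showed no common direction. Of 11, *Fgf2* was at least 2-fold lower in both libraries (44.8 against 151 CPM and 43.7 against 89.2 CPM) and none was 2-fold higher. *Fgf10*, a ligand for the epithelial receptor Fgfr2b, was at 309 against 51.4 CPM at puberty, but 152 of its 269 UMIs came from 1 cell, without which it was at 137 CPM. Among pubertal cells with at least 7 rule genes it was at 86.7 CPM. In the adult it was at 163 against 103 CPM. *Nrg1* likewise rested on few cells, with 23 of 35 pubertal UMIs in 1 cell. Mitogen receptors gave no gene past 2-fold in both libraries among 10, with *Ghr*, the growth hormone receptor, lowest at puberty (log2 ratios of -1.13 and -0.73) and *Insr*, the insulin receptor, in the adult (-0.23 and -1.29). Hedgehog genes gave none among 7.

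Immediate early genes, which respond to growth factors and also to the stress of tissue digestion, were not higher in cycling cells. Of 10, *Klf4* was at least 2-fold lower in both libraries (1081 against 2554 CPM and 595 against 1794 CPM) and none was higher. *Atf3* had log2 ratios of -0.96 and -1.18. *Fos* was at 5243 against 6274 CPM at puberty and 4587 against 7824 CPM in the adult. Of 12 glycolysis genes, *Gapdh* (338 against 141 CPM and 305 against 121 CPM) and *Pgk1* (86.2 against 34.7 CPM and 93.5 against 32.9 CPM) were at least 2-fold higher in both. Ribosomal protein genes were nearly level, with 0 of 78 past 2-fold in either direction and medians of -0.04 and -0.13.

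**Figure D5:**
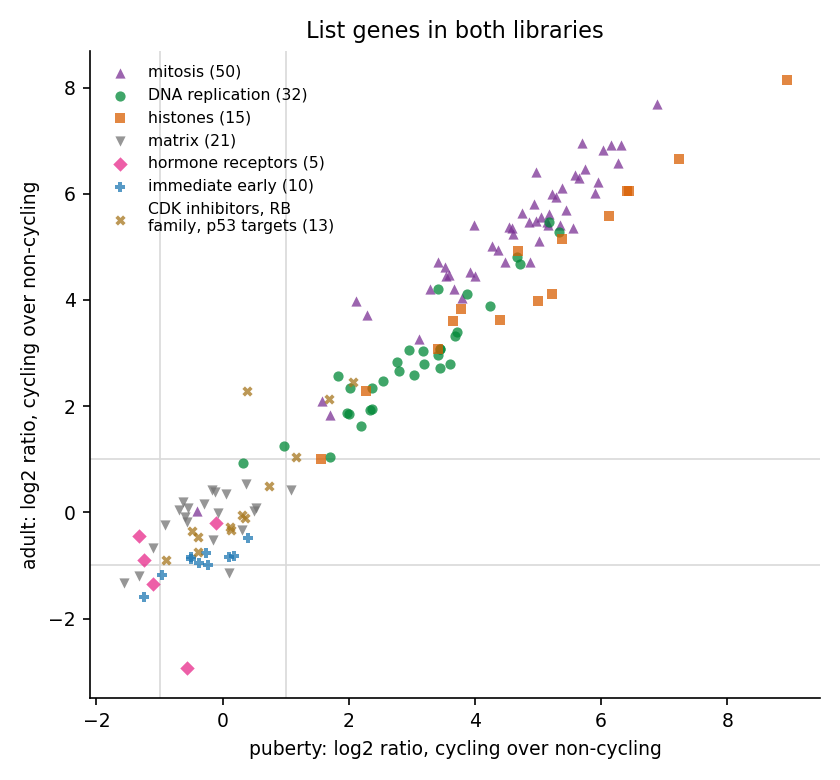
Log2 ratio of cycling over non-cycling *Pdgfra*+ cells at puberty (horizontal) against the adult (vertical) for each tested gene of 7 lists, with grey lines at 2-fold. Mitosis, DNA replication and histone genes lie along a common diagonal above 2-fold except *Pttg1*, *Slbp* and *E2f1*, whereas no matrix, hormone receptor or immediate early gene lies beyond 2-fold upward in both libraries (*Postn* does at puberty) and all 5 hormone receptors lie below 0.

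Outside the cell cycle lists, the 10 genes with the largest ratios in both libraries at a mean of at least 50 CPM still included division genes, among them *Kif15*, a spindle kinesin, *Diaph3*, an actin nucleator, *Cenpp*, a centromere protein, *Ncapg2*, a condensin subunit, and *Tmpo*, a nuclear lamina protein. *Kif15* was at 95.4 against 0.526 CPM at puberty and 126 against 0.454 CPM in the adult. *D17H6S56E-5* ranked first, at 212 against 0.296 CPM and 312 against 0.524 CPM, and was detected in 35 of 47 and 69 of 80 cells. *Slfn9* and *Selenoh* were also among the 10.

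*Sdc1* and *Nrgn* completed the list and are not division genes. *Sdc1*, the cell surface proteoglycan syndecan 1, was at 128 against 8.28 CPM at puberty, in 28 of 47 cells, and at 202 against 39.3 CPM in the adult, in 47 of 80 cells. *Nrgn*, a calmodulin-binding protein, was at 101 against 1.40 CPM and 97.8 against 14.2 CPM, in 16 and 29 cells. All 29 adult cells with *Nrgn* and 14 of the 16 pubertal ones also had *Sdc1*. Among non-cycling cells with *Nrgn*, 609 of 827 adult and 60 of 108 pubertal ones had it. *Sdc1* met *Pparg* in 12 of 28 pubertal and 36 of 47 adult cells, against 555 of 1168 and 2239 of 4520 non-cycling cells with *Sdc1*. It met *Pi16* in 11 and 14 cycling cells, against 527 and 1422 of those non-cycling cells. These counts are at full depth, where cycling cells hold more UMIs. At 3000 UMIs *Sdc1* was detected in 17.0% and 27.5% of cycling against 2.15% and 9.54% of non-cycling cells, and *Nrgn* in 12.8% and 10.0% against 0.249% and 2.17%. *Nrgn* was also found in 13.3% and 10.0% of pericyte-marked cells, *Sdc1* in 1.33% and 2.90%.

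The 10 genes with the lowest ratios were *Igfbp3*, *Rgs6*, *Sntg1*, *Pcdh9*, *Nckap5*, *Frmpd4*, *Apod*, *Smoc2*, *Lvrn* and *Gas6*. *Igfbp3*, a secreted binding protein that holds insulin-like growth factors, was at 59.8 against 403 CPM at puberty and 17.0 against 157 CPM in the adult, and among cells with at least 7 rule genes at 25.6 and 11.2 CPM. *Igf1* itself was at 336 against 281.5 CPM and 251 against 268 CPM. *Apod*, an apolipoprotein, was at 145 against 664 CPM and 243 against 895 CPM, and *Gas6*, a gene first found in growth-arrested fibroblasts, at 25.3 against 86.4 CPM and 28.6 against 122 CPM. *Lvrn* was at 8.05 against 120 CPM and 24.9 against 93.1 CPM. *Frmpd4* had no UMI in pubertal cycling cells, at least 7.12-fold below 24.5 CPM if 3 UMIs over the 47 cells are taken as the limit, and in the adult it was at 52.8 against 206 CPM.

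The stages were then compared within the cycling fibroblasts. Of 2392 genes with at least 100 CPM in cycling cells of either library, 39 (1.63%) were at least 2-fold higher in adult than in pubertal cycling cells and 50 (2.09%) at least 2-fold lower. The same genes in non-cycling cells gave 95 (3.97%) and 41 (1.71%). Among those highest in the adult, *Slit2*, a guidance ligand, was at 1026 against 331 CPM, a ratio of 3.10 (2.73 to 3.53) against 7.05 in non-cycling cells. The heat shock genes *Hspa1a* and *Hspa1b*, with ratios of 3.57 and 3.38, had larger ratios in non-cycling cells (5.34 and 8.16). *Map3k5*, with a ratio of 3.40, was at 1.29 there.

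*Tafa1*, *Alcam*, *Ccl7* and *Crabp1* were among the lowest in adult relative to pubertal cycling cells. For *Crabp1* the order of the stages by summed level was opposite in the 2 kinds of cell. The adult over puberty ratio was 0.219 (0.173 to 0.275) in cycling and 8.19 in non-cycling cells. Of the 256 pubertal UMIs, 82 came from 1 of 10 cells, and of the 106 adult UMIs, 38 from 1 of 17. Without these top cells the levels were 207 and 42.1 CPM. By cells there was no such order, since 21.28% of pubertal and 21.25% of adult cycling cells held a *Crabp1* UMI. In non-cycling cells the shares were 1.40% and 12.8%. *Tafa1* also had opposite orders by summed level (0.0731 and 5.89), but 70 of its 94 pubertal UMIs came from 1 cell. The pubertal excess of *Alcam* rested on 79 of 100 UMIs and that of *Ccl7*, a chemokine, on 182 of 373 UMIs from single cells. Among pubertal cells with at least 7 rule genes *Alcam* was at 31.5 CPM, below its non-cycling level of 50.5 CPM.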

How the data were processed

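Stromal cells sorted as Lineage-negative and CD24-negative were profiled by the submitters with a 10x Genomics GEM-X 3′ kit, 1 library per stage. The authors deposited raw UMI counts per gene and barcode without normalization, made per the labels' processing notes with Cell Ranger 8.0.1 on mm10. Where the methods text of the study differs from the labels on the kit, the software version or the age at puberty, the labels were followed. The libraries held 21688 and 23183 barcodes with 255274670 and 259549498 UMIs.

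Cells with at least 500 genes and at most 10% mitochondrial UMIs were kept (21534 and 22972), with no doublet removal. The cell rule, marker sets and gene lists were chosen with earlier results of these data known. UMIs were summed over cycling and non-cycling *Pdgfra*+ cells and scaled to 1000000 (CPM). Log2 ratios had 1 CPM added, and a gene was counted when at least 2-fold in both libraries at a mean of at least 10 CPM over the 4 sums. Marker shares were taken after thinning each cell to 3000 UMIs at random without replacement, leaving out shallower cells (no cycling cell). Shares have exact Clopper-Pearson intervals and ratios conditional binomial intervals. For ratios of summed UMIs these take each UMI as independent and leave out the spread between cells. Pooled observed over expected intervals take the non-cycling share as known. Doublets were scored with Scrublet in scanpy 1.11.5 at 0.4% per 1000 barcodes (1881 and 2150 cells), and its own threshold marked 579 and 791. Scripts were tested on simulated data.

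Genes were named by rule. These were the 12 rule genes, at most 4 examples per list (highest and lowest ratios), *Pcna*, *Ccnb1*, *Ccnd1*, *Cdkn1a*, *Esr1*, *Pgr*, *Igf1* and *Col1a1*, class markers, the 10 highest and 10 lowest genes outside the cell cycle lists at a mean of at least 50 CPM, and the 5 highest and 5 lowest stage ratios at 100 CPM. *Phlda3* and *Fos*, the pericyte-marked cells and pairs of genes in the same cell were added after their values were seen. A few genes that these rules select and 1 promoter stretch are not reported here.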

Additional observations from a re-analysis of the deposited data

Results flagged for a closer look

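The *Crabp1* class stood out because its ratio of observed to expected cycling cells pointed in opposite directions at the 2 stages. With 3 of its markers required at 3000 UMIs per cell, the ratio was 4.72 at puberty (interval 0.118 to 27.1) and 0.297 in the adult (0.0359 to 1.07). These rest on 1 pubertal and 2 adult cells, both intervals include 1, and the difference between the stages was not tested. With 2 markers the ratios were 12.9 (5.84 to 24.9), from 9 cells, and 0.731 (0.378 to 1.28), from 12 cells. Among cells with at least 7 of the 12 rule genes none carried 3 markers in either library.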

How the results depend on the processing

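Of the comparisons that answer a question of the design, 98 alternative values stayed within the interval of the reported value (counts within 1.5 times), 20 moved outside it and the share ratio between the stages turned. The adult over puberty ratio reversed to 0.930 with at least 2 of the 12 genes, when 147 pubertal and 152 adult cells met the rule. With at least 5 genes 31 pubertal cells did, with at least 7, chosen after seeing the data, 25 pubertal and 47 adult cells, and with cells thinned to 3000 UMIs 15 and 34, which by construction are fewer. Requiring 3 markers of another type left 1 cell per library, and Scrublet's own threshold marked 1 pubertal and 5 adult cycling cells. The preadipocyte ratio was 2.93 at 6000 UMIs, 2.68 without thinning and 2.02 with 2 markers. The progenitor ratio was 0.904 without thinning. The *Crabp1* class ratio, whose interval includes 1, lay on the other side of 1 without thinning (1.52) and with 2 markers (1.23), and was 0 both with at least 2 UMIs per marker and with at least 7 rule genes. Genes at least 2-fold lower numbered 243 after centring on the median of all genes, and genes at least 2-fold higher 876 without a minimum CPM, when more genes entered. The median of growth factor genes turned to 0.0801 without the minimum. For single genes and list medians 229 alternative values stayed within their interval or the spread of the 2 libraries, 76 moved and 1 reversed. Apart from these, the cause of a move was not tested. The 47 and 80 cells leave wide intervals on class calls. No paired analysis was possible because each stage has 1 library and the only shared replicate number is 2.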
